A study of Mus musculus with 10 samples.

Results

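The kidney that remained after removal of its partner (nephrectomy) was compared with the kidney opposite one that had been made ischaemic (contralateral kidney). The comparison used 11 of the 32 bulk RNA-seq libraries of the series: nephrectomy libraries 1, 2 and 4 and 8 contralateral libraries. Nephrectomy library 3 was left out because it held a heart profile, with 14.2% of its counts from 15 heart muscle genes. Libraries were chosen by their labels and by that heart profile.

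The series contains 10 GEO samples of mouse kidney, 8 of them bulk and the others single-cell, from animals of 8 weeks. Nephrectomy kidneys came from C57/BL6 mice, with no tamoxifen named in the labels and no time between nephrectomy and harvest given. The first contralateral arm came from C57/BL6 mice that received tamoxifen (wild-type tamoxifen arm, 4 libraries). The second came from Pax8creERT2;Ihhfl/fl mice with no tamoxifen (floxed vehicle arm, 4 libraries), in which a tamoxifen-dependent Cre driven from Pax8 in kidney tubule cells had not been activated and the floxed Ihh gene was therefore in place. In both contralateral arms the opposite kidney had undergone 15 min of renal artery ligation 2 weeks before harvest, so the contralateral kidneys themselves had an injured partner. No arm matched the nephrectomy kidneys in strain and in tamoxifen at once, and these differences and the surgery itself cannot be told apart. The labels do not say that the 4 numbered libraries of a group were separate animals, so p-values measure only the spread between libraries. A further contralateral group, labelled as Ihh-deleted by tamoxifen in floxed mice (4 libraries), and 2 uninjured C57/BL6 libraries with a kidney profile are given as values beside the results.

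Depth ran from 8.34 M to 28.05 M counts in nephrectomy libraries and from 23.6 M to 37.98 M in contralateral libraries. Proximal tubule genes held 4.40% to 4.60% of counts in nephrectomy libraries and 3.98% to 5.09% in contralateral ones. Floxed vehicle library 2 stood apart, with the highest total and 5.55% of counts from the mitochondrial genome, against 2.51% as the lowest share among contralateral libraries. Nephrectomy library 1 held 0.155% heart muscle counts, against a median of 0.00305% in the other 10 libraries. Uninjured library 2 held only 0.593 M counts and library 3 held 7.56 M.

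When a kidney is lost, the remaining one takes over filtration and enlarges, mostly by growth of existing tubule cells, a process called compensatory hypertrophy. Kidney tubules also carry a circadian clock: CLOCK and BMAL1 (the product of Arntl) bind E-boxes and drive Per, Cry and Nr1d1, whose products repress the drivers in return. Glucocorticoids from the adrenal gland reach every nephron segment and act through a nuclear receptor on genes such as Sgk1, Fkbp5 and Per1. Immediate early genes, such as Fos, Jun and the Nr4a family, are switched on within minutes by growth factors, stress or tissue handling without new protein synthesis.

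Of 15806 genes tested with edgeR's quasi-likelihood test, 585 passed a Benjamini-Hochberg adjusted p of 0.05 (3.70%), 338 higher (2.14%) and 247 lower (1.56%) in nephrectomy than in contralateral kidneys. Of these, 130 were over 2-fold higher and 102 over 2-fold lower, and the median log2 fold change over all genes was -0.05. In 491 of the 585 the 3 nephrectomy libraries did not overlap the 8 contralateral ones. Over all genes tested 10.7% did not overlap (2.79% above and 7.96% below). The 585 were picked by a test on the same libraries, so their greater separation follows from that choice and is not further support. Genes named below by size of change also had to show no overlap. Against the wild-type tamoxifen arm alone 316 genes passed (2.00%, with 1.15% higher and 0.854% lower), against the floxed vehicle arm alone 338 (2.14%, with 1.20% higher and 0.936% lower), and 178 passed against both. No gene among the 585 differed in sign between the arms. They were chosen against the mean of both arms with shared nephrectomy libraries, so this is not independent agreement. The floxed vehicle and wild-type tamoxifen arms differed from each other in 1 gene (0.00633%) with edgeR, in 1364 genes at an unadjusted p under 0.05 and in 74 genes with DESeq2. The counts moved with single libraries: 105 genes passed without nephrectomy library 2, 142 without nephrectomy library 4 and 337 without nephrectomy library 1. Among contralateral libraries 2400 passed without floxed vehicle library 2, and 374, 325, 316 and 359 without wild-type tamoxifen libraries 2, 3 and 4 and floxed vehicle library 4.

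The promoters of 4 genes that were higher after nephrectomy are shown because they carry the clock's E-box (CACGTG) or the cyclic AMP response element (CRE, TGACGTCA). Each is the 250 bases before the gene's start, 5′ to 3′ on the gene's strand, from RefSeq on GRCm38.p6, with the motif in capitals. The windows lie at chr11:69098699-69098948 (Per1, plus strand, the first of 2 starts listed), chr10:85185055-85185304 (Cry1, minus strand), chr17:26508473-26508722 (Dusp1, minus strand) and chr1:134079156-134079405 (Btg2, minus strand).
Per1: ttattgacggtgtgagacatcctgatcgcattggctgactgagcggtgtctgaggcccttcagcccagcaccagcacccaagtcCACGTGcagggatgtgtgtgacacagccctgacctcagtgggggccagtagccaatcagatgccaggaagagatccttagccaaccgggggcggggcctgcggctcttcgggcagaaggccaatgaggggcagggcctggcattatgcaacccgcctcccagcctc
Cry1: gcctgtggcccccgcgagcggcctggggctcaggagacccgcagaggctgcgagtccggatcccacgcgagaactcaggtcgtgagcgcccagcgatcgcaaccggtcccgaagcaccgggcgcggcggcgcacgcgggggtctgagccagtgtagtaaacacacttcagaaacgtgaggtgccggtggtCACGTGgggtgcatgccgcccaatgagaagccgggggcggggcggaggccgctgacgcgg
Dusp1: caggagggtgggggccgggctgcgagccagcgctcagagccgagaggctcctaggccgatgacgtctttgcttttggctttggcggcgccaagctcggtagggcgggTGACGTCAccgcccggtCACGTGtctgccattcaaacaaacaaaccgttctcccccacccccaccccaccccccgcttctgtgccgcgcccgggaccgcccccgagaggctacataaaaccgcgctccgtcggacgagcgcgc
Btg2: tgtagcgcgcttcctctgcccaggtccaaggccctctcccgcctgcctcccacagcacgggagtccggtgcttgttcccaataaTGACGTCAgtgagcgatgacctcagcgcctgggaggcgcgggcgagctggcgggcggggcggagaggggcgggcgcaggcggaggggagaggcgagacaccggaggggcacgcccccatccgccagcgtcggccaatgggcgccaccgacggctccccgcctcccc
The E-box begins 166 bases before the start in Per1, 60 in Cry1 and 126 in Dusp1, and the CRE begins 143 bases before it in Dusp1 and 166 in Btg2. In Dusp1 the motifs do not overlap. Read on both strands, the E-box was present in 5 of the 15 clock genes found in the promoter table (Per1, Cry1, Tef, Ciart and Bhlhe41), of which only Per1 and Cry1 passed the test, and in 6.86% of the promoters of all 27025 genes in that table. The clock's D-box (TTATGTAA) was present in 1 of the 15 (Per3), against 0.977% of all genes. The CRE was present in 2 of 15 immediate early genes, Dusp1 and Btg2, against 1.77% of all genes. The glucocorticoid element was found in 2 of 11 glucocorticoid response genes, Sgk1 and Mt1, against 0.44% of all genes. The sterol element was found in 0 of 14 cholesterol and fatty acid synthesis genes, against 0.0814% of all genes. A match describes letters in this window and not a bound site.

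Clock genes differed with opposite signs. Of 18 clock genes tested, 5 were higher (background 2.14%), among them Cry1, Nfil3, Per1 and Bhlhe40, and 1 was lower (Nr1d1, background 1.56%) after nephrectomy. The labels give no time of day of harvest, so its part in these values was not tested. Nr1d1 encodes REV-ERBα, a nuclear receptor that represses Arntl, Cry1 and Nfil3. Its level was 7.92, 3.54 and 6.25 CPM (counts scaled to the library total) in the nephrectomy libraries, against 46.6, 51.6, 64.4 and 71.1 CPM in wild-type tamoxifen and 70.6, 48.4, 70.3 and 81.7 CPM in floxed vehicle libraries. All 3 nephrectomy libraries lay far below all 8 contralateral ones, and the log2 fold change was -3.33 ± 0.26 (standard error), with an adjusted p of 0.00012 in edgeR's quasi-likelihood test.

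Cry1, a repressor of CLOCK and BMAL1, moved the other way. It stood at 22.5, 28.7 and 26.4 CPM in nephrectomy libraries, against 6.21, 6.91, 6.16 and 3.61 CPM in wild-type tamoxifen and 4.09, 4.14, 2.48 and 2.12 CPM in floxed vehicle libraries. The groups did not overlap (log2 fold change 2.66 ± 0.24, edgeR adjusted p = 0.000265).

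Nfil3, a repressor of D-box genes, had 21.9, 36.5 and 23.3 CPM in nephrectomy libraries and 1.44 to 12.8 CPM in contralateral ones (log2 fold change 2.45 ± 0.53, edgeR adjusted p = 0.0292). Its call was lost when any of the 3 nephrectomy libraries was left out (edgeR adjusted p = 0.0611 to 0.179), or wild-type tamoxifen library 2 or 4 or floxed vehicle library 1 or 4 (0.0525 to 0.0607). Per1, a clock repressor that glucocorticoids and cyclic AMP also induce, had 113, 100 and 134 CPM in nephrectomy libraries, against 10.1 to 42.4 CPM in contralateral ones (log2 fold change 2.23 ± 0.33, edgeR adjusted p = 0.00654). Bhlhe40, which competes with CLOCK and BMAL1 for E-boxes, averaged 205 ± 35.5 CPM in nephrectomy and 91.3 ± 20.7 CPM in contralateral kidneys (SD, n = 3 and 8, edgeR adjusted p = 0.00605). In both genes the groups did not overlap.

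Other clock genes missed the threshold, and several were spread widely among the contralateral libraries. Dbp, a D-box activator driven by E-boxes, had 19.7, 7.68 and 10.9 CPM in nephrectomy libraries, against 12.3, 129, 162 and 34.3 CPM in wild-type tamoxifen and 107, 35.8, 51.4 and 110 CPM in floxed vehicle libraries (log2 fold change -2.55, edgeR adjusted p = 0.0829). Arntl, the partner gene of Clock, had 16.6, 33.7 and 32.4 CPM after nephrectomy, against 35.9, 2.59, 1.74 and 20.6 CPM in wild-type tamoxifen libraries. Wild-type tamoxifen libraries 2 and 3 were therefore high in Dbp and low in Arntl, and libraries 1 and 4 were the reverse. Per2 lay above all contralateral libraries, at 92.2 to 121 CPM against 9.94 to 65.8 CPM, but did not pass (edgeR adjusted p = 0.0758). Cry2 (log2 fold change 0.88) and Clock (0.47) had edgeR adjusted p of 0.052 and 0.0758. Per3, Nr1d2, Tef, Ciart, Npas2, Hlf and Bhlhe41 overlapped between the groups and did not pass, with log2 fold changes between -0.91 and 0.61.

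Uninjured kidneys did not side with a single group throughout. In uninjured libraries 3 and 2, Nr1d1 lay between the groups at 18.3 and 23.6 CPM. Cry1, at 17.1 and 25.3 CPM, was closer to nephrectomy than to contralateral kidneys. Per1, at 45.6 and 57.4 CPM, was just above the contralateral range. No test was run on these libraries.

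**Figure D1:**
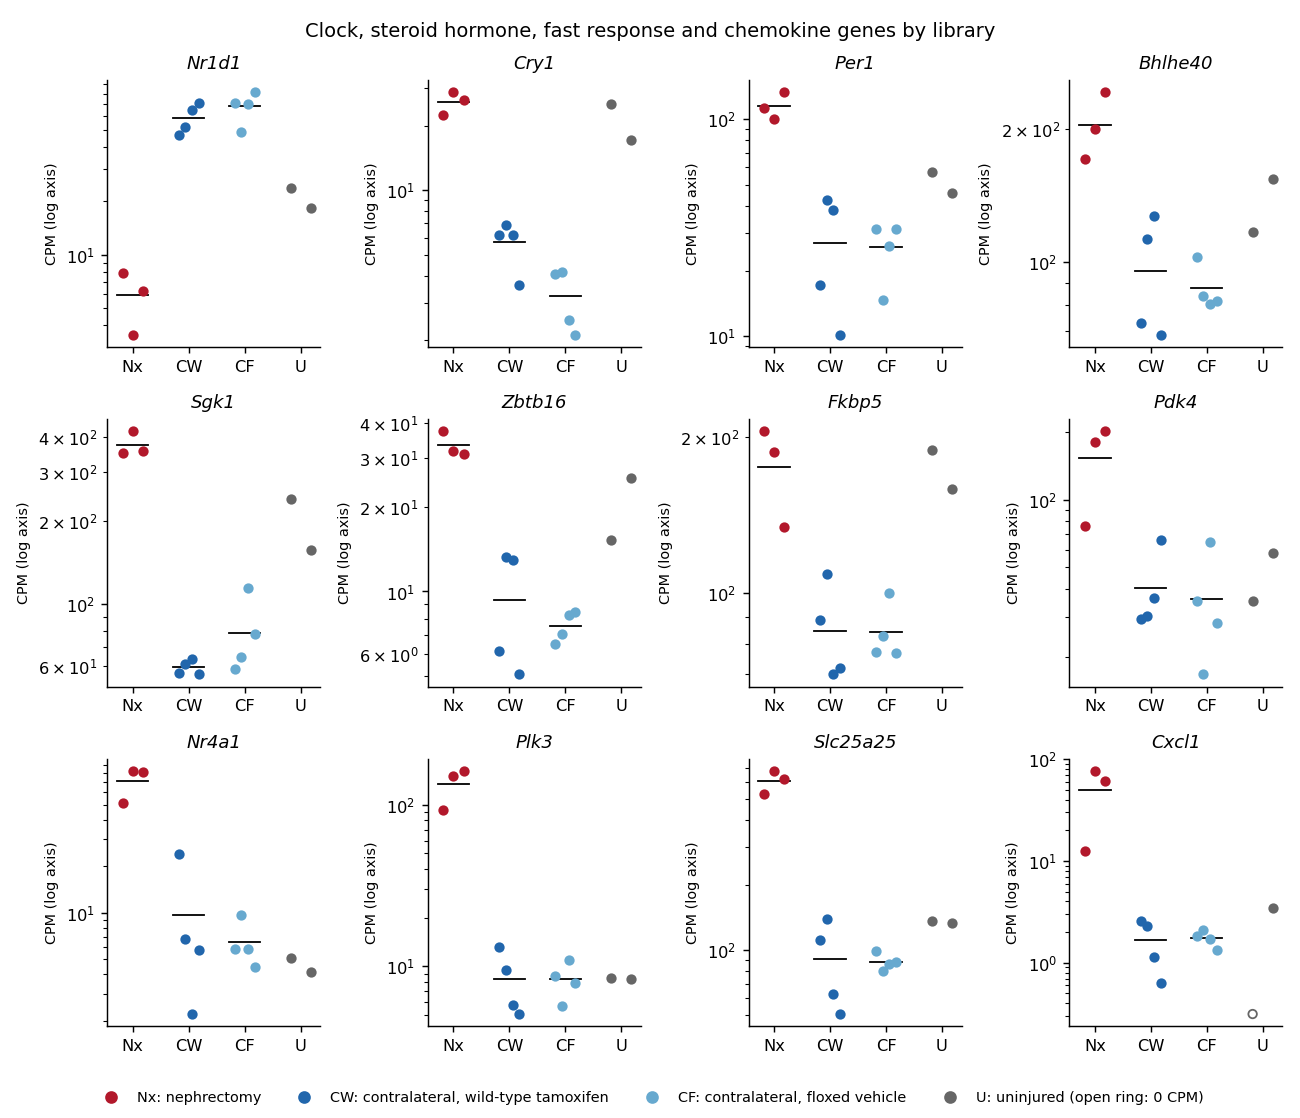
CPM per library (log axis) of 12 genes in nephrectomy kidneys (Nx), contralateral kidneys of the wild-type tamoxifen (CW) and floxed vehicle (CF) arms and uninjured kidneys (U). Points are libraries and bars are means of the groups of 3 or 4. Nr1d1 lies below all contralateral libraries after nephrectomy and the other 11 genes lie above them, while uninjured libraries are closer to nephrectomy for Cry1 and Fkbp5 and within the contralateral range for Nr4a1 and Plk3.

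Genes that glucocorticoids induce were higher as a group. Of 12 tested, 9 passed, all higher after nephrectomy (background 2.14%), and the median log2 fold change of the list was 1.43, against -0.05 over all genes. Per1 and Dusp1 also belong to the clock or immediate early lists, Cdkn1a to the p53 targets and Pdk4 to fatty acid oxidation. The summed level of the list was 1420 to 1700 CPM in nephrectomy and 487 to 664 CPM in contralateral libraries. Sgk1, a kinase that keeps the epithelial sodium channel at the cell surface, had 351, 419 and 356 CPM in nephrectomy libraries. Its level was 56.4, 60.7, 63.5 and 55.7 CPM in wild-type tamoxifen and 58.1, 64.5, 114 and 78.0 CPM in floxed vehicle libraries. The log2 fold change was 2.55 ± 0.15 (edgeR adjusted p = 2.22e-05), with no overlap.

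Zbtb16, a zinc finger transcription factor, had 37.2, 31.6 and 31.0 CPM in nephrectomy libraries and 5.06 to 13.3 CPM in contralateral ones (log2 fold change 2.07 ± 0.25, edgeR adjusted p = 0.002). Fkbp5, a chaperone that dampens the glucocorticoid receptor, averaged 175 ± 37.1 CPM in nephrectomy and 84.5 ± 14.0 CPM in contralateral kidneys (SD, n = 3 and 8, edgeR adjusted p = 0.00524). Tsc22d3, the glucocorticoid-induced leucine zipper, averaged 85.2 ± 13.5 CPM after nephrectomy, against 33.8 ± 9.48 CPM (edgeR adjusted p = 0.00919). These 3 genes did not overlap between the groups, and the uninjured libraries, at 15.2 and 25.4 CPM for Zbtb16, 159 and 189 CPM for Fkbp5 and 95.9 and 108 CPM for Tsc22d3, lay above the contralateral range.

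Pdk4, which turns pyruvate away from oxidation, had 76.3, 180 and 201 CPM in nephrectomy libraries and 16.7 to 66.0 CPM in contralateral ones (log2 fold change 2.09 ± 0.36, edgeR adjusted p = 0.0108). Its call was lost without nephrectomy library 2 (edgeR adjusted p = 0.0735) or 4 (0.0717). Klf9, a transcription factor induced by the receptor, was higher by a smaller amount (log2 fold change 0.54 ± 0.09, edgeR adjusted p = 0.00883). The metallothionein genes Mt1 and Mt2, which bind zinc, had log2 fold changes of 0.05 and -0.40 and did not pass, nor did Sult1a1 (0.20). Without nephrectomy library 2 or 4, 5 of the 12 passed.

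**Figure D2:**
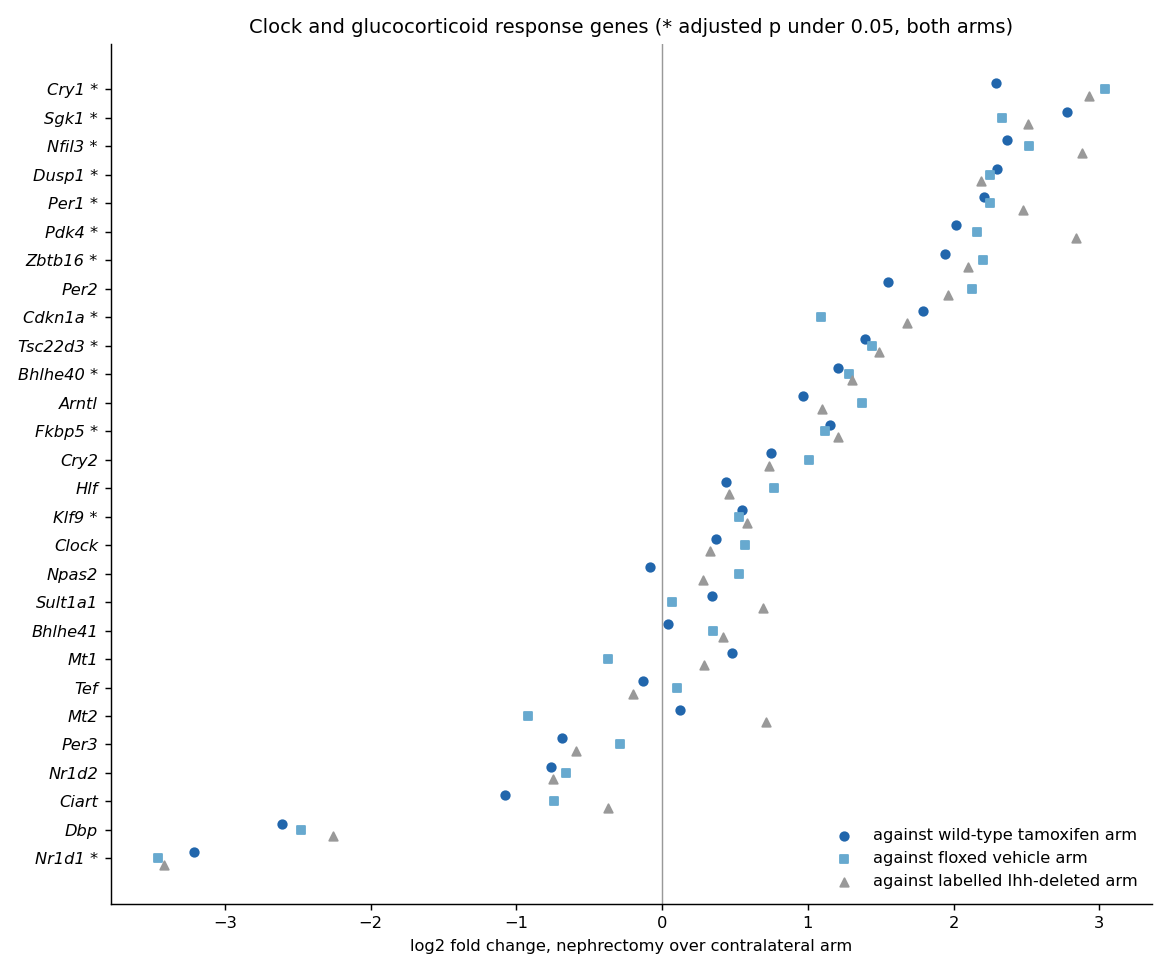
Log2 fold change of nephrectomy over each contralateral arm for clock and glucocorticoid response genes, with the labelled Ihh-deleted arm, which the pooled test did not use, as triangles. The 3 arms share the nephrectomy libraries. Genes marked with a star passed the pooled test, and their symbols for the 3 arms lie on the same side of 0.

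Immediate early genes were higher in nephrectomy kidneys in 12 of 18 tested (background 2.14%), none was lower, and the median log2 fold change was 2.04. Their summed level was 961 to 1960 CPM in nephrectomy and 289 to 691 CPM in contralateral libraries. Nr4a1, an orphan nuclear receptor, had 51.4, 82.5 and 80.9 CPM in nephrectomy libraries, against 23.8, 6.75, 2.21 and 5.73 CPM in wild-type tamoxifen and 5.78, 9.68, 5.78 and 4.44 CPM in floxed vehicle libraries. Every nephrectomy library lay above every contralateral one (log2 fold change 3.25 ± 0.49, edgeR adjusted p = 0.00654). Its relatives Nr4a2 (log2 fold change 4.14 ± 0.41, edgeR adjusted p = 0.000629) and Nr4a3 (3.96 ± 0.46, 0.00199), which are outside the list, did the same.

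Jun, a subunit of the AP-1 transcription factor, had 110, 368 and 274 CPM in nephrectomy libraries and 25.1 to 89.4 CPM in contralateral ones (log2 fold change 2.36 ± 0.35, edgeR adjusted p = 0.00654). Nephrectomy library 1 was the lowest of the 3, and the call was lost without library 2 (edgeR adjusted p = 0.0543). Egr1, a zinc finger factor, had 57.1, 140 and 162 CPM in nephrectomy libraries, and its lowest value was only just above the highest contralateral one, 56.1 CPM. Its log2 fold change was 2.76 ± 0.55 (edgeR adjusted p = 0.0204), lost without nephrectomy library 2 (0.113) or 4 (0.104). Atf3, a stress-induced factor, had 9.07, 11.6 and 20.2 CPM in nephrectomy libraries and 0.637 to 4.22 CPM in contralateral ones (log2 fold change 3.07 ± 0.49, edgeR adjusted p = 0.0085, and 0.0548 without nephrectomy library 4).

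Dusp1, a phosphatase that switches off MAP kinases, averaged 355 ± 108 CPM in nephrectomy and 76.5 ± 38.3 CPM in contralateral kidneys (SD, n = 3 and 8, edgeR adjusted p = 0.0136). Its call was lost without nephrectomy library 2 (edgeR adjusted p = 0.0801) or 4 (0.0758). Btg2, an antiproliferative gene, averaged 166 ± 66.3 CPM after nephrectomy, against 37.2 ± 16.7 CPM (edgeR adjusted p = 0.0074). Klf6, Junb, Zfp36, Ier2, Ier3 and Myc also passed. Myc, a growth regulator, had 5.60, 11.2 and 8.53 CPM in nephrectomy libraries, against 2.39 to 5.25 CPM in contralateral ones (edgeR adjusted p = 0.0181, and 0.148 and 0.0768 without nephrectomy library 2 or 4). Fos (log2 fold change 2.26, edgeR adjusted p = 0.0643) and Fosb (2.44, 0.0537) overlapped with wild-type tamoxifen library 1, the highest contralateral library for Nr4a1, Jun and Egr1 too. Klf2 and Klf4, with log2 fold changes of -0.11 and 0.24, Egr2 and Jund did not pass, and Egr3 was too low to be tested. Without nephrectomy library 2 or 4, 5 and 3 of the 18 passed.

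Plk3, a stress-responsive kinase, had the next smallest adjusted p of all genes tested, after Sgk1. It had 93.0, 150 and 162 CPM in nephrectomy libraries, against 13.1, 9.46, 5.78 and 5.06 CPM in wild-type tamoxifen and 8.75, 5.67, 11 and 7.93 CPM in floxed vehicle libraries (log2 fold change 4.11 ± 0.25, edgeR adjusted p = 2.42e-05). Slc25a25, a mitochondrial carrier of ATP-magnesium and phosphate, averaged 609 ± 74.5 CPM in nephrectomy and 89.7 ± 27.9 CPM in contralateral kidneys (SD, n = 3 and 8, edgeR adjusted p = 0.000197). In the uninjured pair, libraries 3 and 2 had 8.35 and 8.44 CPM of Plk3 and 134 and 137 CPM of Slc25a25, within the contralateral range. Over the 12 higher genes taken by size of change, uninjured library 3 lay below the nephrectomy range in 12, within the contralateral range in 8, above it in 3 (Cxcl1, Cry1 and Sgk1) and below it in 1, and it was closer to nephrectomy in 1. Over the 12 lower genes taken the same way, it lay within the nephrectomy range in 3 and above it in 9, below the contralateral range in 6, within it in 4 and above it in 2, and it was closer to nephrectomy in 7.

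Among stress and chemokine genes, 5 of 16 members of the TNF and NF-kB list were higher (background 2.14%) and none was lower, with a list median of 0.25. Cxcl1, a neutrophil chemokine, had the largest change by the naming rule. It stood at 12.5, 76.4 and 61.6 CPM in nephrectomy libraries, against 2.56, 2.30, 1.15 and 0.628 CPM in wild-type tamoxifen and 1.82, 2.11, 1.70 and 1.33 CPM in floxed vehicle libraries (log2 fold change 4.95 ± 0.45, edgeR adjusted p = 0.000331). Nephrectomy library 1 was much lower than libraries 2 and 4 but still above every contralateral library. Nfkbia, the inhibitor that NF-kB itself induces, averaged 70.2 ± 32.2 CPM after nephrectomy, against 19.6 ± 2.23 CPM (SD, n = 3 and 8, edgeR adjusted p = 0.00204).

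Cxcl2, another neutrophil chemokine, reached at most 3.82 CPM (log2 fold change 4.43, edgeR adjusted p = 0.0041, and 0.0516 without nephrectomy library 2). Tnfaip3, which ends NF-kB signalling, had 12.3, 52.6 and 57.2 CPM in nephrectomy libraries and 7.67 to 14.0 CPM in contralateral ones (edgeR adjusted p = 0.00706, and 0.0565 without nephrectomy library 2). Cxcl10, an interferon-inducible chemokine, had 1.26, 23.8 and 25.7 CPM in nephrectomy libraries, so that library 1 lay below every contralateral library (edgeR adjusted p = 0.0443). Its call was lost without nephrectomy library 2 (0.254) or 4 (0.2) and without any contralateral library except floxed vehicle library 2 (0.0501 to 0.0849). Tnf itself was at 0.143 to 0.240 CPM in nephrectomy and 0.0371 to 0.686 CPM in contralateral libraries and did not pass.

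Gdf15, a stress cytokine of the TGF-β superfamily, had 19.1, 53.5 and 77.1 CPM in nephrectomy libraries and 4.08 to 15.7 CPM in contralateral ones (log2 fold change 2.59 ± 0.41, edgeR adjusted p = 0.00765, and 0.0548 without nephrectomy library 4). Cdkn1a, the cell cycle inhibitor p21, averaged 14.8 ± 6.30 CPM after nephrectomy, against 5.81 ± 1.94 CPM (SD, n = 3 and 8, edgeR adjusted p = 0.0204, and 0.0958 and 0.13 without nephrectomy library 2 or 4). They were the 2 of 22 tubular injury genes and the 2 of 12 p53 targets that passed (background 2.14%). The list medians were -0.19 and 0.02, with a negative log2 fold change in 16 of the 22 and 6 of the 12. Havcr1 (kidney injury molecule 1) had 1.71 to 1.82 CPM in nephrectomy and 1.41 to 23.5 CPM in contralateral libraries (log2 fold change -2.0, edgeR adjusted p = 0.0664). Lcn2 (neutrophil gelatinase-associated lipocalin) had 2.16 to 2.32 CPM and 0.849 to 18.3 CPM and did not pass. In both markers the contralateral range extended below and above the nephrectomy range.

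Of 15 ER stress genes 3 were higher (background 2.14%): Ddit3 (CHOP, log2 fold change 1.68, edgeR adjusted p = 0.00228), Herpud1 and Atf4. The last pair lost their calls without nephrectomy library 2 (0.153 and 0.127) or 4 (0.112 and 0.0548), and Herpud1 also without library 1 (0.128). Of 14 heat shock genes 3 were higher (background 2.14%), with Hspa1a, an inducible chaperone, at 30.0, 73.5 and 35.7 CPM in nephrectomy and 11 to 28.1 CPM in contralateral libraries (edgeR adjusted p = 0.00883, and 0.0593 without nephrectomy library 2). Uninjured libraries 3 and 2 had more Hspa1a than either group, at 130 and 113 CPM.

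Macrophage and lymphocyte genes were on the low side after nephrectomy, while neutrophil genes were mostly on the high side. All 16 macrophage genes had a negative log2 fold change (median -1.03), and 3 passed: Cx3cr1, Ccr2 and C1qb (background 1.56%). In 8 of the 16 the nephrectomy libraries lay below every contralateral one (background 7.96%). The summed level was 101 to 125 CPM in nephrectomy and 142 to 279 CPM in contralateral libraries. In bulk tissue fewer cells of a type and less RNA per cell cannot be told apart. Lists of other cell types also had mostly negative log2 fold changes: 7 of 7 erythroid genes (median -1.5, none passed), 11 of 12 endothelial genes (median -0.37, none passed) and 21 of 22 matrix and mural genes (median -0.56, 1 passed). Over all genes tested 1.56% passed as lower. The share of counts from the erythroid genes was 0.0249% to 0.0401% in nephrectomy and 0.0242% to 0.225% in contralateral libraries. The part of these lists in the leukocyte values was not tested.

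Cx3cr1, the fractalkine receptor of resident macrophages, had 4.08, 1.71 and 3.0 CPM in nephrectomy libraries, against 11.4, 9.50, 6.71 and 8.01 CPM in wild-type tamoxifen and 9.30, 8.49, 7.15 and 10.7 CPM in floxed vehicle libraries (log2 fold change -1.53 ± 0.27, edgeR adjusted p = 0.0133). Between the groups lay uninjured libraries 3 and 2, at 5.17 and 5.07 CPM. The call was lost without nephrectomy library 2 (edgeR adjusted p = 0.0693) or 4 (0.0672). Ccr2, the receptor of recruited monocytes, averaged 6.0 ± 1.89 CPM after nephrectomy, against 18.4 ± 6.92 CPM (SD, n = 3 and 8, edgeR adjusted p = 0.0416). C1qb, a complement subunit made by macrophages, averaged 6.65 ± 1.09 CPM, against 18.1 ± 7.47 CPM (edgeR adjusted p = 0.0421). Both calls were lost without any 1 nephrectomy library and without most single contralateral libraries. Over the list, 0 genes passed without nephrectomy library 2 or 4, 1 without nephrectomy library 1, wild-type tamoxifen library 2, 3 or 4 or floxed vehicle library 1 or 4, and 5 without floxed vehicle library 2 or 3.

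Other leukocyte genes among the lower ones were Ctss, a lysosomal protease of antigen-presenting cells, Mgl2, a lectin of alternatively activated macrophages, Spn, a leukocyte surface sialoprotein, and Il5ra, the interleukin-5 receptor. Il5ra had 1.94, 1.96 and 1.44 CPM in nephrectomy libraries and 5.01 to 9.30 CPM in contralateral ones (log2 fold change -1.74 ± 0.24, edgeR adjusted p = 0.00408). Uninjured libraries 3 and 2, at 1.85 and 1.69 CPM, were at the nephrectomy level, but the value of the shallow library 2 rests on very few counts. The calls of Ctss, Mgl2 and Spn were lost without any 1 nephrectomy library (edgeR adjusted p = 0.0642 to 0.232) and without several contralateral ones. Ifi27l2a, an interferon-induced gene, averaged 1.69 ± 0.796 CPM after nephrectomy, against 6.89 ± 1.41 CPM (SD, n = 3 and 8, edgeR adjusted p = 0.00725, and 0.0581 without nephrectomy library 2). S100a6, a calcium-binding protein, averaged 3.09 ± 0.291 CPM, against 10.9 ± 5.25 CPM (edgeR adjusted p = 0.0193), a call lost without nephrectomy library 1 (0.0668), 2 (0.13) or 4 (0.0802). Prdm1, a transcription factor of plasma cells and some epithelia, had 0.841 to 1.68 CPM after nephrectomy, against 2.63 to 7.07 CPM (edgeR adjusted p = 0.00534).

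None of 14 lymphocyte and plasma cell genes passed with edgeR (background 3.70%), although all 14 had a negative log2 fold change (median -1.35). Their summed level was 45.9 to 72.3 CPM in nephrectomy and 51.2 to 528 CPM in contralateral libraries. Jchain, the joining chain of secreted antibodies, split the arms: it had 21.5, 9.18 and 8.65 CPM after nephrectomy, 131 to 191 CPM in wild-type tamoxifen and 9.93 to 98.4 CPM in floxed vehicle libraries. Of 12 interferon response genes 2 were lower (background 1.56%), Ifi44 (log2 fold change -1.19 ± 0.21, edgeR adjusted p = 0.0137) and Ifit3 (-0.97 ± 0.17, 0.012), and all 12 had a negative log2 fold change. Both calls were lost without nephrectomy library 2 (edgeR adjusted p = 0.101 and 0.0958) or 4 (0.077 and 0.0524). Of 6 neutrophil genes 1 passed, on the higher side (background 2.14%). Of the 6, 5 had a positive and 1 a negative log2 fold change (median 1.7). In 3 of the 6 the nephrectomy libraries lay above every contralateral one (background 2.79%). S100a9, a calcium-binding protein of neutrophils, had 2.97, 5.14 and 2.64 CPM in nephrectomy libraries and 0.170 to 2.19 CPM in contralateral ones (edgeR adjusted p = 0.0297). It did not pass when any 1 nephrectomy library was left out (0.0646 to 0.202), or wild-type tamoxifen library 2, 3 or 4 or floxed vehicle library 4 (0.0566 to 0.0627). The summed neutrophil level was 15.4 to 21.4 CPM in nephrectomy and 8.17 to 10.7 CPM in contralateral libraries.

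**Figure D3:**
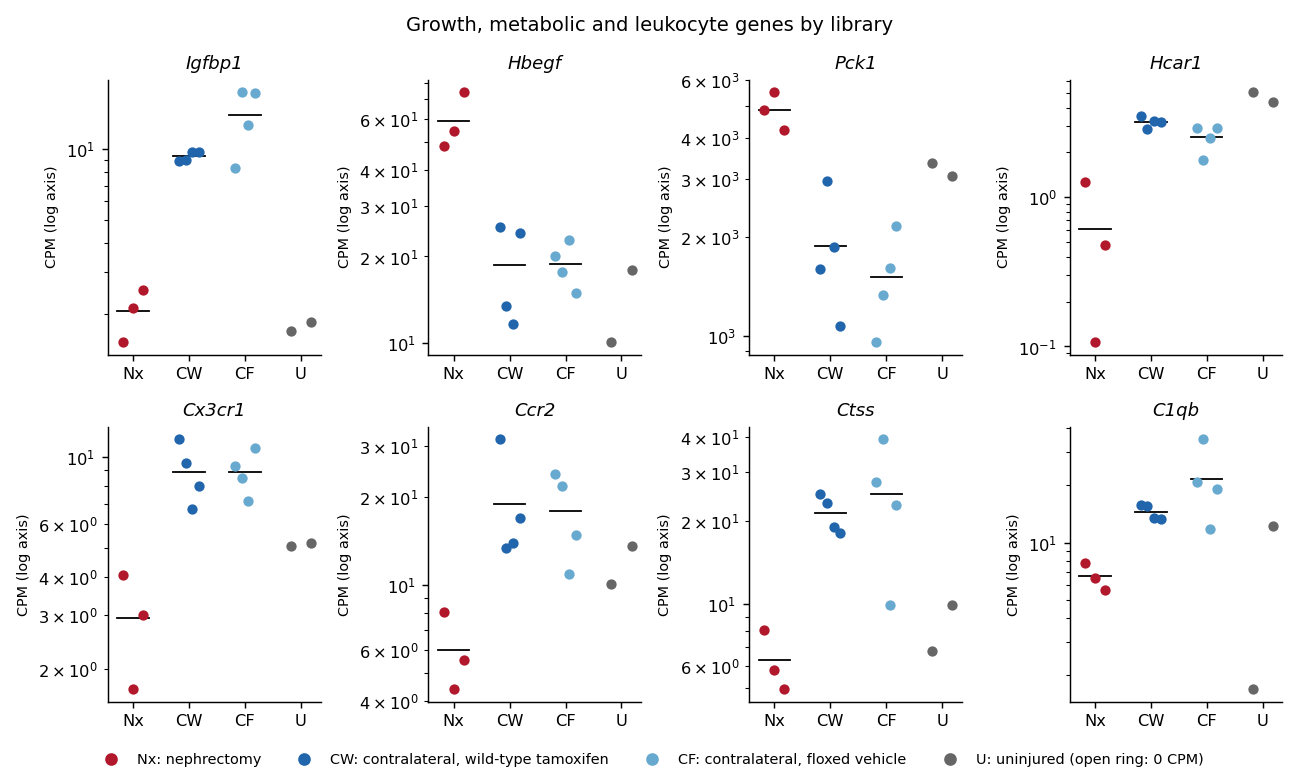
CPM per library (log axis) of growth, metabolic and leukocyte genes in nephrectomy kidneys (Nx), contralateral kidneys of the wild-type tamoxifen (CW) and floxed vehicle (CF) arms and uninjured kidneys (U). Points are libraries and bars are means of the groups of 3 or 4. Igfbp1 separates nephrectomy and uninjured libraries from all 8 contralateral ones, and Hbegf and Pck1 are highest after nephrectomy. Cx3cr1, Ccr2, Ctss and C1qb are lower on average after nephrectomy than in contralateral kidneys. Ctss of uninjured library 2, at 6.76 CPM, lies within the nephrectomy range of 4.93 to 8.07 CPM.

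Few genes of growth and the cell cycle passed the test, but over all genes tested only 3.70% did. Of 19 growth factor and receptor genes tested, Hbegf was higher (background 2.14%) and Igfbp1 lower (background 1.56%). Hbegf, a ligand of the epidermal growth factor receptor, had 48.4, 54.4 and 74.1 CPM in nephrectomy libraries, against 11.7 to 25.2 CPM in contralateral ones (log2 fold change 1.73 ± 0.22, edgeR adjusted p = 0.00266), with uninjured libraries 3 and 2 at 17.9 and 10.1 CPM. Igfbp1, which binds and restrains insulin-like growth factors, had 1.52, 2.11 and 2.52 CPM in nephrectomy libraries. Its level was 8.93, 9.01, 9.69 and 9.74 CPM in wild-type tamoxifen and 8.31, 17.4, 12.6 and 17.3 CPM in floxed vehicle libraries (log2 fold change -2.44 ± 0.29, edgeR adjusted p = 0.002). Uninjured libraries 3 and 2 had 1.85 and 1.69 CPM, within the nephrectomy range and below every contralateral library. Library 2 held only 0.593 M counts, so its value rests on very few counts, and no test was run on these libraries. Igf1 did not pass (log2 fold change -0.38, edgeR adjusted p = 0.278).

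None of 20 proliferation genes passed (background 3.70%), and 18 of 20 had a negative log2 fold change (median -0.35). Mki67, which marks cycling cells, had 4.93 to 7.08 CPM in nephrectomy and 3.85 to 13.6 CPM in contralateral libraries. None of 22 cytosolic ribosomal protein genes passed (background 3.70%), although 21 of 22 had a negative log2 fold change (median -0.11). Not passing does not show that these genes were unchanged. Of 20 genes of mTORC1, Myc and ribosome biogenesis, Myc and Ddit4 were higher (background 2.14%). Ddit4 (REDD1), which restrains mTORC1 and is induced by glucocorticoids and stress, had 53.7, 31.6 and 44.5 CPM in nephrectomy libraries, against 6.54 to 15.2 CPM (log2 fold change 1.96 ± 0.17, edgeR adjusted p = 0.000265). Fst, which binds activins, averaged 1.36 ± 0.489 CPM after nephrectomy, against 5.30 ± 1.87 CPM (SD, n = 3 and 8, edgeR adjusted p = 0.0186, and 0.131 and 0.0876 without nephrectomy library 2 or 4).

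Pck1, the rate-limiting enzyme of gluconeogenesis and of the ammonia response, had 4850, 5510 and 4230 CPM in nephrectomy libraries, against 1600, 2960, 1860 and 1070 CPM in wild-type tamoxifen and 957, 1330, 1610 and 2160 CPM in floxed vehicle libraries (log2 fold change 1.62 ± 0.27, edgeR adjusted p = 0.01). Intermediate values were found in uninjured libraries 3 and 2, at 3070 and 3360 CPM. The call was lost without nephrectomy library 2 (edgeR adjusted p = 0.0706).

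Of 22 cholesterol and fatty acid synthesis genes 5 were higher (background 2.14%) and none lower, with Srebf1, Insig1 and Hmgcs1 among them. Srebf1, the transcription factor of lipid synthesis, averaged 94.6 ± 7.5 CPM after nephrectomy, against 52.8 ± 11.7 CPM (SD, n = 3 and 8, edgeR adjusted p = 0.00418). Uninjured libraries 3 and 2 were at the nephrectomy level of Srebf1 or above it, with 120 and 92.9 CPM. Without any 1 nephrectomy library 2 of the 22 passed. Of 21 fatty acid oxidation genes 5 were higher (background 2.14%), among them Pdk4 and, by less than 2-fold, Acaa1b, Ehhadh and Cpt2. The call of Insig1 was lost without any 1 nephrectomy library (edgeR adjusted p = 0.103 to 0.19), and without wild-type tamoxifen library 3 or floxed vehicle library 1 or 4 (0.0654 to 0.0714). That of Acaa1b was lost without nephrectomy library 2 (0.179) or 4 (0.112). That of Ehhadh was lost without nephrectomy library 2 (0.248) or 4 (0.17), and without wild-type tamoxifen library 1, 3 or 4 or floxed vehicle library 1 or 4 (0.0513 to 0.0789). Hcar1, a lactate receptor, was lower, at 1.26, 0.107 and 0.481 CPM in nephrectomy and 1.77 to 3.53 CPM in contralateral libraries (edgeR adjusted p = 0.0429), with 8 of the 11 single libraries ending the call when left out (0.0716 to 0.157). Slc6a19, a neutral amino acid transporter of the proximal tubule, was also lower. It was the only one of 19 amino acid transport genes that passed (background 1.56%). It had 290, 250 and 244 CPM in nephrectomy and 350 to 770 CPM in contralateral libraries (log2 fold change -0.90 ± 0.18, edgeR adjusted p = 0.025). Its call was lost without any 1 nephrectomy library (0.0599 to 0.142) or without wild-type tamoxifen library 2 (0.052). None of 23 nuclear respiratory chain genes and none of 13 mitochondrial genome genes passed (background 3.70%).

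Scnn1a and Scnn1g, subunits of the epithelial sodium channel that SGK1 regulates, had log2 fold changes of 0.63 ± 0.11 and 0.53 ± 0.11 (edgeR adjusted p = 0.0113 and 0.0216). Both calls were lost without nephrectomy library 2 (0.0921 and 0.113) or 4 (0.0644 and 0.118). Trpm6, a magnesium channel, and Trpv5, a calcium channel, were higher by 0.75 and 0.48 on the log2 scale (edgeR adjusted p = 0.0257 and 0.00912), calls that were lost without nephrectomy library 2 (0.055 and 0.0609) or 4 (0.136 and 0.0548), and that of Trpm6 also without nephrectomy library 1 (0.0801) or wild-type tamoxifen library 3 (0.0504). Foxi1, a transcription factor of intercalated cells, was lower, at 7.73, 5.36 and 7.57 CPM in nephrectomy and 9.09 to 15.9 CPM in contralateral libraries (log2 fold change -0.80 ± 0.19, edgeR adjusted p = 0.0415). Its call was lost without any 1 nephrectomy library (0.0785 to 0.241), and without wild-type tamoxifen library 1, 3 or 4 or floxed vehicle library 4 (0.0573 to 0.0773). Slc20a1, a phosphate transporter, had 111, 166 and 139 CPM in nephrectomy and 36.6 to 72.8 CPM in contralateral libraries (log2 fold change 1.57 ± 0.17, edgeR adjusted p = 0.00139). Ihh, the gene floxed in the second arm, had 11.1 to 19.0 CPM in nephrectomy and 8.05 to 14.3 CPM in contralateral libraries and did not pass. Col3a1, a fibrillar collagen, was lower (log2 fold change -0.97, edgeR adjusted p = 0.0475), the only one of 22 matrix and mural genes that passed (background 1.56%). Its call ended when any of 10 of the 11 single libraries was left out (0.0577 to 0.254). Col1a1 did not pass (log2 fold change -0.87, edgeR adjusted p = 0.261).

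Heart muscle genes were highest in nephrectomy library 1. All 5 that could be tested passed as higher (background 2.14%), and 14 of 15 heart muscle genes had their highest value of the 11 libraries there. Tnnt2, cardiac troponin T, had 22.2, 1.89 and 1.32 CPM in nephrectomy libraries and 0.0527 to 1.26 CPM in contralateral ones (log2 fold change 4.04, edgeR adjusted p = 0.0185). Without nephrectomy library 1 its adjusted p was 0.252. Ttn, titin, had 821, 15.3 and 19.1 CPM in nephrectomy libraries, and its log2 fold change was 3.88 with library 1 and -0.16 without it. The heart share of library 1 was 1.07% of that of nephrectomy library 3. At that share the values of library 3 would make up over 50% of the library 1 value in 11 of the 585 genes, including Tnnt2, Ttn, Pln, Ryr2 and Myh6.

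**Figure D4:**
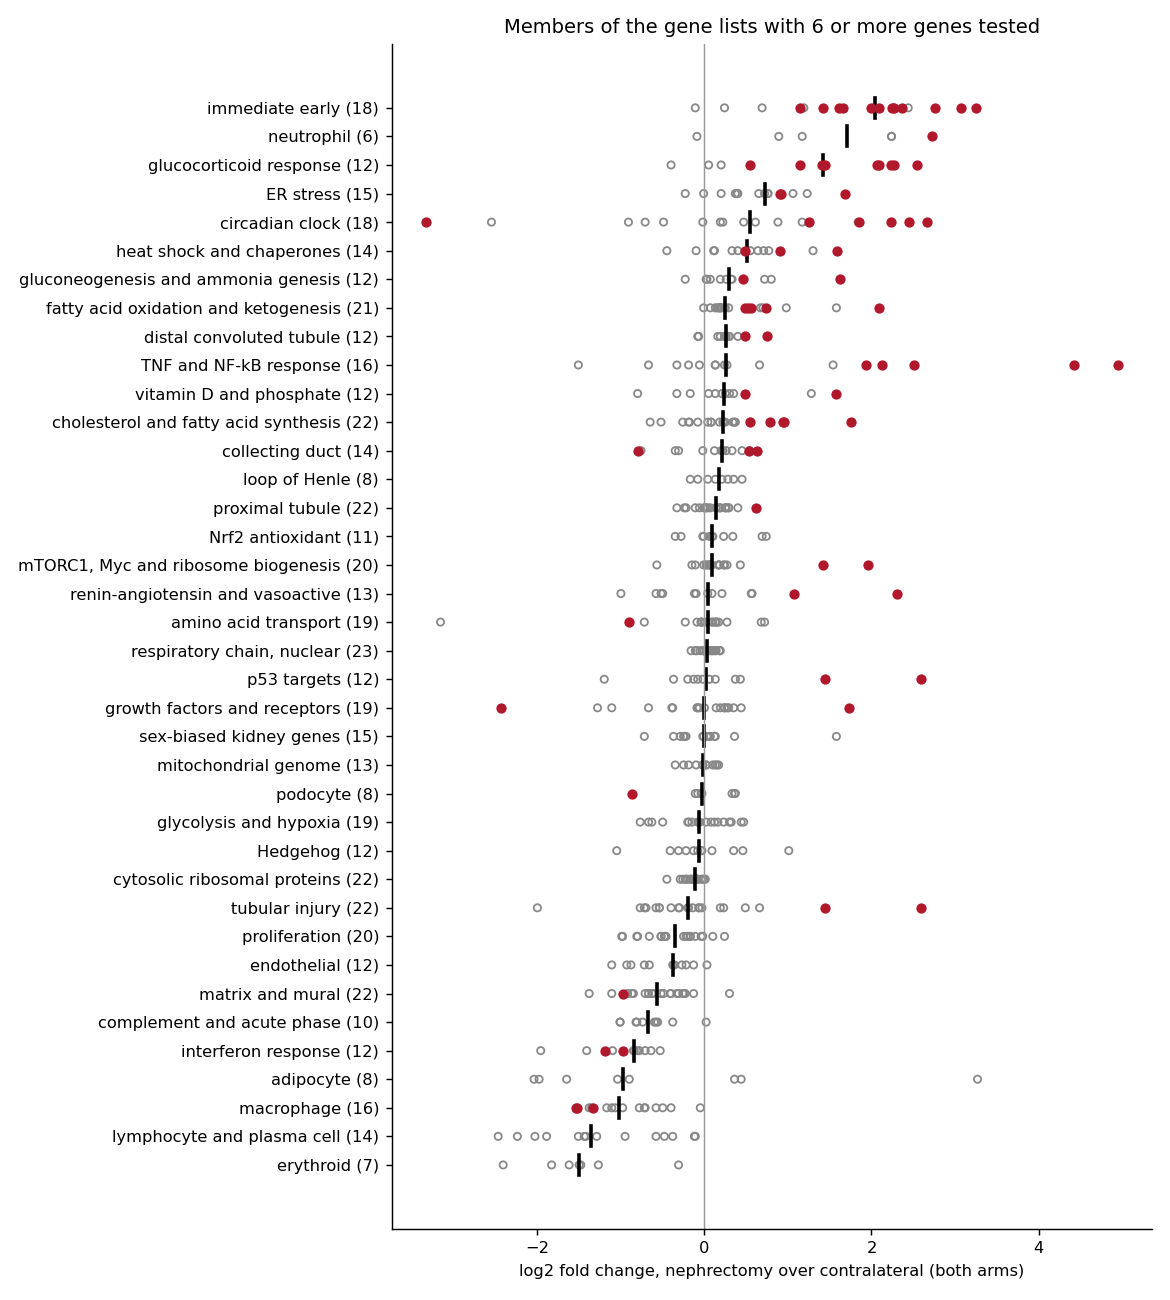
Log2 fold change of nephrectomy over contralateral kidneys for every tested member of the gene lists with 6 or more genes tested, with the number tested in parentheses. Filled red points passed the test, open grey points did not, and black bars are medians. Immediate early, neutrophil and glucocorticoid response genes lie to the right with medians of 2.04, 1.7 and 1.43. Erythroid, lymphocyte and plasma cell, and macrophage genes lie to the left with medians of -1.5, -1.35 and -1.03. The median is -0.11 for ribosomal protein genes, with 21 of 22 negative, and 0.03 for nuclear respiratory chain genes.

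Against the labelled Ihh-deleted contralateral arm, which shares the nephrectomy libraries, 640 of 15953 genes passed (4.01%), 352 higher (2.21%) and 288 lower (1.81%). The leading genes had like values there. The log2 fold change was -3.42 for Nr1d1, 2.93 for Cry1, 2.51 for Sgk1, 4.01 for Plk3 and 4.89 for Cxcl1. Of the lists, 12 immediate early, 9 glucocorticoid response and 5 clock genes were higher, while 1 macrophage gene was lower. C1qb, Ctss and S100a6 did not pass in that arm (edgeR adjusted p = 0.143, 0.104 and 0.25).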

How the data were processed

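Kidney RNA was measured in 32 bulk libraries, deposited as 1 table of transcripts by libraries. Its values are expected counts, made by the authors with Salmon 1.4 per the submitters' processing notes, which name GRCm38 and mm10 as builds. The transcript set and options are not given there. From the values, 83.2% of positive entries were not whole and totals differed between libraries. Raw reads and the single-cell tables were not used here. Each bulk sample has 4 numbered columns, taken as 4 libraries, with names matched to titles despite spelling differences (NEPHRECTOMY and NEPRECTOMY, CNTLTRL and CONTRA). GENCODE M21 held 105203 of the 105833 transcripts. The remaining 630 (0.213% of counts) were dropped, and sums per gene (33644) were rounded.

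The main test was the quasi-likelihood F test of edgeR 4.0.16 (R 4.3.3) on 11 libraries, with filterByExpr, TMM factors and 1 coefficient for each group. P-values were adjusted by Benjamini-Hochberg across every gene tested, and 0.05 was the threshold. The nephrectomy group was set against both contralateral arms with equal weight, and against each alone. Each log2 fold change is the fitted one with its standard error, and CPM are counts scaled to the library total. On simulated counts the fit was checked with known changes. Depths of 8.34 M to 37.98 M counts limit precision for genes near 1 CPM or below.

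Named genes were the 12 per direction with the largest change among genes past the threshold, at a mean log2 CPM of at least 1, with the same direction against each arm and no overlap of libraries, predicted models left out, plus leading members of each gene list and 8 chosen genes. Most clock, glucocorticoid response and immediate early members were described, and some genes are not reported here. The members of the comparison, the gene lists and the rule were chosen with earlier results of these data known. Alternatives were RLE factors, 2 other low-count filters, DESeq2 1.42.0, fits with further libraries, a block by library number and each library left out. Same-numbered libraries had correlations of -0.17 to 0.15 over 10 pairs, which cannot settle whether they were paired. The main test used no pairing, and with the block by library number 266 genes passed. No library copied another of its group (the chi-square per gene was at least 9.1). List genes that matched no gene, or more than 1 gene ID, were left out.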

Additional observations from a re-analysis of the deposited data

Results flagged for a closer look

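In groups of 4 libraries, 7 of 184 gene and group combinations had a library whose gap to its nearest neighbour was large against the range of the group. Chance gives about 1 in 20. In the wild-type tamoxifen arm these were Nr4a3 in library 1 (highest, 2.68 CPM) and Bub1 in library 1 (highest, 0.852 CPM). In the floxed vehicle arm they were S100a6 in library 3 (highest, 22.2 CPM), Lcn2 in library 3 (highest, 18.3 CPM), Jchain in library 2 (highest, 98.4 CPM), Acaa1b in library 1 (lowest, 201 CPM) and Ihh in library 1 (lowest, 8.05 CPM). Library 3 of that arm was the high one for both S100a6 and the injury marker Lcn2. Outside the comparison, nephrectomy library 3 carried 14.2% of its counts in heart muscle genes, against 0.00125% to 0.00492% in contralateral libraries.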

How the results depend on the processing

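The count of 585 genes stayed within 1.5 times with RLE factors, other low-count filters and all 29 kidney-profile libraries, and it was 1505 with DESeq2, 1389 with all bulk libraries (1174 higher, 215 lower, a set that includes heart-profile libraries) and 2236 without nephrectomy library 1 and floxed vehicle library 2, a setting chosen after seeing the data. RLE factors gave 390 higher and 220 lower. Of the 585 genes, 558 also passed with RLE factors and 264 with all bulk libraries. With all kidney-profile libraries 777 genes passed, of which 418 were among the 585. Leaving out single libraries gave 105 to 2400. The library numbers were not taken to pair the samples, and the low correlations cannot settle whether they do. Own numbers matched best in 4 of 10 pairs, each of which included a nephrectomy library. With the replicate block 266 genes passed. Against the wild-type tamoxifen arm the counts were 1104 (DESeq2), 498 (all bulk libraries), 105 (replicate block), 2030 (without both libraries) and 11 to 1846 leaving out 1. Against the floxed vehicle arm they were 1274, 699, 109, 1297 and 33 to 1331, and 601 with all kidney-profile libraries. Floxed vehicle against wild-type tamoxifen gave 74 with DESeq2, 5 with the block, 3 without both libraries, 0 with other filters or with more libraries, and 0 to 11 leaving out 1. Against the labelled Ihh-deleted arm leaving out 1 gave 158 to 2479; the stricter filter, DESeq2, all bulk libraries and the block were not run for it. Over all lists 74 calls became 146 with DESeq2, 164 without both libraries and 31 to 174 leaving out 1. Macrophage calls were 6 with DESeq2, 5 without both libraries and 0 to 5 leaving out 1, immediate early calls 3 to 15, glucocorticoid response calls 5 to 9, and clock calls 10 with DESeq2 and 5 to 10 leaving out 1.

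The sign turned with all bulk libraries for Ifi27l2a (0.28), Col3a1 (2.02) and C1qb (0.09), and without nephrectomy library 1 for Ttn (-0.16, and up to 4.44 leaving out another) and Pln (-0.62, and up to 4.17), or without that library and floxed vehicle library 2 (-0.3 and -0.55). Of 71 named genes that passed, 26 did so without nephrectomy library 2 and 71 without floxed vehicle library 2. For counts under fewer libraries the smaller sample is part of the setting; for the others the cause was not tested. Low counts limit genes near 1 CPM.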

Other observations

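The ischaemic kidneys themselves, which the comparison did not use, give a further view of the leading genes. Plk3 averaged 180 ± 88.4 CPM in injured kidneys of the labelled Ihh-deleted arm and 125 ± 67.9 CPM in those of the floxed vehicle arm, but 8.70 ± 1.41 CPM in those of the wild-type tamoxifen arm (SD, n = 4 each). The lowest library of either floxed arm, at 56.9 CPM, lay above the highest of the wild-type arm, at 10.3 CPM. Slc25a25 averaged 198 ± 64.8, 173 ± 61.7 and 44.5 ± 4.0 CPM in the same order, and Zbtb16 91.7 ± 26.7, 82.8 ± 26.6 and 25.4 ± 8.51 CPM. The summed glucocorticoid response list was 977 to 1490 CPM in the floxed arms and 522 to 700 CPM in the wild-type arm. The share of all genes with such a split was not counted, so it cannot be called particular to the genes named. No wild-type arm without tamoxifen was among the injured kidneys used here, and no test was run.

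Nr1d1 did not follow that split. In injured kidneys Nr1d1 averaged 51.9 ± 11, 67.4 ± 18 and 56.9 ± 13.6 CPM in the labelled Ihh-deleted, wild-type tamoxifen and floxed vehicle arms (SD, n = 4 each), all above the nephrectomy range of 3.54 to 7.92 CPM. Igfbp1, which separated nephrectomy from contralateral kidneys, averaged 6.11 ± 4.16, 2.57 ± 1.19 and 6.0 ± 2.9 CPM in injured kidneys of the same arms.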
